A study of Mus musculus with 8 samples.

Results

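Il17a and Il17f encode the 2 cytokines that define the T helper 17 (Th17) programme, and their transcripts were followed in 8 droplet single-cell libraries from the mouse colonic lamina propria, the connective tissue under the gut epithelium. The members were found by symbol and are 2 of the 31053 gene rows of each table. The 8 libraries fell into 4 groups of 2. All mice were C57BL/6, 10 to 12 weeks old, and were harvested on day 10. Untreated wildtype mice had drunk plain water throughout. Untreated mutant mice, kept in the same way, carried a serine-to-alanine substitution in RORγt, which the series names S182A and the sample titles S203A, as a knock-in. The DSS-treated groups, 1 of each genotype, had received 2% dextran sulfate sodium (DSS), an agent that injures the colonic epithelium, in the water for 7 days and plain water for 3 days. Cells of all groups had been enriched with a CD4 T cell isolation kit, and the design text states that the 2 libraries of a group are independent biological replicates.

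Th17 cells, some gamma-delta T cells and group 3 innate lymphoid cells (ILC3), which lack a T cell receptor, are the known sources of IL-17 cytokines in the gut. IL-17A and IL-17F are secreted as homodimers or as a heterodimer and act through a receptor built of the IL17RA and IL17RC chains on epithelial and stromal cells, where they induce chemokines for neutrophils and antimicrobial peptides. In the healthy colon, Th17 cells live in the lamina propria and respond to the microbiota.

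The genes are neighbours. On GRCm38 (mm10), Il17a (ENSMUSG00000025929) lies at chr1:20730905-20734496 on the plus strand with 3 exons, and Il17f (ENSMUSG00000041872) at chr1:20777146-20790617 on the minus strand, in GENCODE M21. The 2 genes point towards each other, 42649 bases separate them, and the annotation places no gene between them and none that overlaps either one. Their promoters are shown because the substitution lies in a DNA-binding nuclear receptor. The 250 bases before the RefSeq start of each transcript are printed 5′ to 3′ on the gene's own strand, from the RefSeq promoter table on GRCm38.p6, with AGGTCA, a core sequence of nuclear receptor binding sites, or its reverse complement in capitals. The Il17a stretch is chr1:20730655-20730904 (plus strand) and the Il17f stretch is chr1:20784271-20784520 (minus strand), which lies inside the annotated Il17f gene, since GENCODE lists 4 transcripts and the gene reaches further upstream than the RefSeq start.
Il17a: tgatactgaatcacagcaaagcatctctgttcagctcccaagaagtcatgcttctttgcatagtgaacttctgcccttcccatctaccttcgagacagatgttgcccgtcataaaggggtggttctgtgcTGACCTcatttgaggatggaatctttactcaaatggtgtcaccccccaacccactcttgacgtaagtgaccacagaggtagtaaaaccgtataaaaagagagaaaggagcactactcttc
Il17f: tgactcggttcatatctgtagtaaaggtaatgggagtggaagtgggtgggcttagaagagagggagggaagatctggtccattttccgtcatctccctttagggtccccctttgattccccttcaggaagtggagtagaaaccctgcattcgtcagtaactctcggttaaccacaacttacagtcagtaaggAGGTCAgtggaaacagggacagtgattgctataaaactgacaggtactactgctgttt
Each stretch held 1 AGGTCA match, on the reverse strand with its first printed base 120 bases before the start in Il17a, and on the printed strand 58 bases before the start in Il17f. Of the 32851 promoter stretches of this length in the table, 14.0% held AGGTCA on either strand. A loose form of the AP-1 motif, TGANTCA with any base at N, matched once in the Il17a stretch, as TGAATCA 244 bases before the start. It did not match in the Il17f stretch, against 6.75% of all stretches. The STAT motif TTCNNNGAA matched in neither stretch, against 7.02% of all. None of these matches overlapped another. They describe letters in a window and show no binding.

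The libraries held 100673 barcodes and 34497509 to 46960005 UMIs (unique molecular identifiers, 1 per captured transcript) each. The authors' list of kept cells named 27420 of these barcodes, and the 20712 of them in T cell clusters, 1775 to 3751 a library, are called listed CD4 T cells below. Each of them had a Cd4 UMI by the authors' selection, and their median depth was 2365 UMIs. Any 2 libraries shared 21 to 64 barcode sequences, at most 0.577% of the smaller library. The counts come from transcript ends and cannot show the substitution, so the genotype labels could not be checked from them.

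The levels of both genes differed widely between the 2 libraries of a group, least in untreated wildtype, and no group stood apart from the others. Il17a stood at 335 and 428 UMIs per 1000000 UMIs (CPM) in untreated wildtype, 449 and 1242 in untreated mutant, 713 and 342 in DSS-treated wildtype, and 1427 and 177 in DSS-treated mutant listed CD4 T cells. The DSS-treated mutant pair thus held both the highest and the lowest library. Il17f stood at 45.04 and 68.8 CPM, 62.5 and 168, 84.8 and 25.8, and 111 and 13.3 in the same order of groups. Its highest library was untreated mutant replicate 2 and its lowest was again DSS-treated mutant replicate 2. Group means of Il17a ran from 381 ± 65.1 CPM in untreated wildtype through 528 ± 263 in DSS-treated wildtype and 802 ± 884 in DSS-treated mutant to 845 ± 561 in untreated mutant (SD, n = 2). Group means of Il17f were 55.3 ± 41.8 CPM in DSS-treated wildtype, 56.9 ± 16.8 in untreated wildtype, 62.2 ± 69.2 in DSS-treated mutant and 115 ± 74.7 in untreated mutant (SD, n = 2). The ranges of libraries overlapped between all neighbours in both orders. For Il17a, both untreated mutant libraries were above both untreated wildtype libraries, which are not neighbours in that order.

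**Figure D1:**
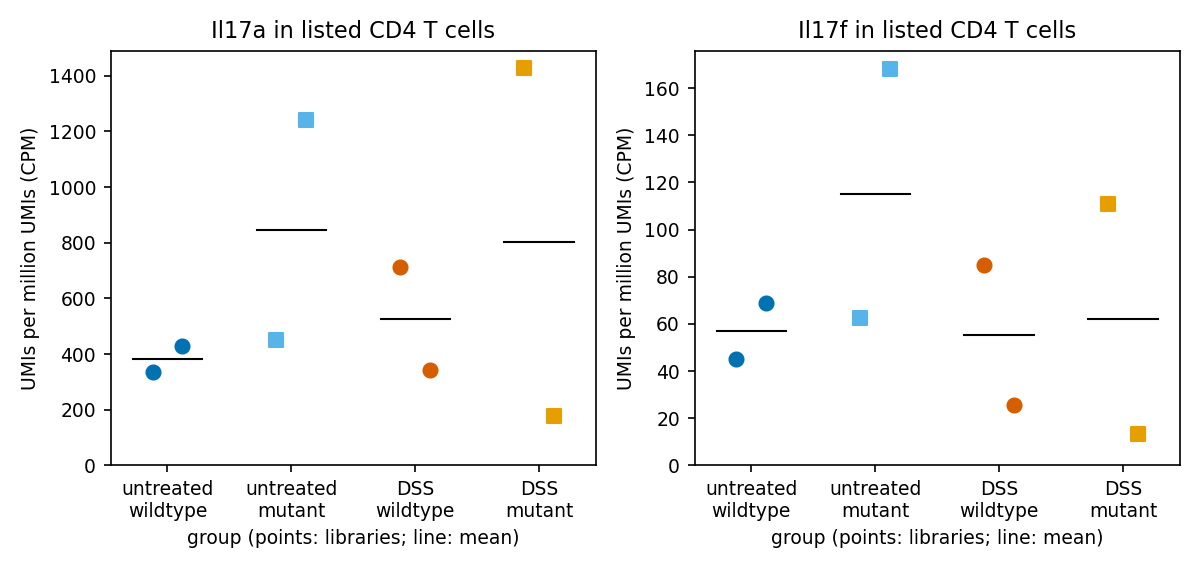
Il17a (left) and Il17f (right) in listed CD4 T cells, in CPM on the vertical axis, by group on the horizontal axis; each point is a library and each line the mean of the 2 libraries of a group. The 2 DSS-treated mutant libraries lie at 1427 and 177 CPM for Il17a and span the range of all other groups.

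The design asks whether DSS changed the genes in each genotype and whether the mutation changed them in each treatment. Neither gene passed the test in any of these contrasts, with edgeR's quasi-likelihood test on the summed counts of each library and Benjamini-Hochberg adjustment over the 11034 genes tested. After DSS in wildtype mice, the log2 fold change was 0.41 ± 0.76 (SE) for Il17a and -0.08 ± 0.82 for Il17f, where 0.227% of all genes were called. After DSS in mutant mice it was -0.17 ± 0.75 for Il17a and -1.03 ± 0.81 for Il17f, where 5.12% of genes were called. Averaged over the genotypes, DSS moved Il17a by 0.12 ± 0.53 and Il17f by -0.56 ± 0.58, where 18.4% of genes were called. In untreated mice the mutant was at 1.16 ± 0.76 for Il17a and 1.03 ± 0.82 for Il17f relative to wildtype, and after DSS at 0.58 ± 0.75 and 0.08 ± 0.82. The values in untreated mice were 0.21 and 0.11 without untreated mutant replicate 2, and 1.72 and 1.58 without untreated mutant replicate 1. Averaged over the treatments, the mutant was at 0.87 ± 0.54 for Il17a and 0.55 ± 0.58 for Il17f. Both directions rested on DSS-treated mutant replicate 1: without it the mutant was at -0.22 and -0.54 over the treatments and at -1.60 and -2.10 after DSS. Without DSS-treated wildtype replicate 2, Il17f after DSS also turned, to -0.52. Leaving out single libraries also turned the direction of Il17a in each contrast of DSS, of Il17f for DSS in wildtype, and of both genes in the interaction. The test of whether the mutant's effect differed between the treatments gave -0.58 ± 1.07 for Il17a and -0.95 ± 1.16 for Il17f. Adjusted p-values of the members in these edgeR fits ran from 0.444 to 1.0, and no gene of any kind was called in the 4 contrasts that involve the mutation (0% called), with 174 to 582 genes at an unadjusted p under 0.05. With every gene kept, however low its counts, edgeR called 131 genes for the mutation in untreated mice, 27 after DSS, 70 for the interaction and 66 over the treatments, the members in part among them. It called 6 in untreated mice without untreated mutant replicate 2, 18 there with neighbouring animal numbers as a block, and 4 after DSS without DSS-treated wildtype replicate 1. DESeq2 called 16 genes for the mutation in untreated mice, 1 for the interaction and 0 in the other two contrasts, with neither member among them. Leaving out a library leaves 1 in its group, which is then assumed to vary like the other groups. Without DSS-treated mutant replicate 1, where the lowest library alone stands for DSS-treated mutant mice, edgeR called both genes lower after DSS in mutant mice, Il17a by -2.34 (adjusted p = 0.048) and Il17f by -3.20 (adjusted p = 0.041), and Il17f lower over the mean of the genotypes, by -1.64 (adjusted p = 0.0316).

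The libraries differed both in how many cells held the transcripts and in how many UMIs such a cell held. Each cell was thinned to 1000 UMIs to compare them, which left out 21 to 137 shallower cells a library. Il17a was then found in 12.8% and 16.3% of listed CD4 T cells of untreated wildtype, 11.4% and 26.6% of untreated mutant, 19.6% and 10.2% of DSS-treated wildtype, and 34.8% and 7.50% of DSS-treated mutant libraries. Positive cells held 2.71 and 2.74, 3.91 and 5.01, 4.06 and 3.72, and 4.72 and 3.04 Il17a UMIs each in the same order. The share thus ran over a 4.64-fold range (SD of log2 values 0.74, n = 8) and the UMIs per positive cell over a 1.85-fold range (SD 0.34). Unthinned, the share of Il17a-positive cells ran from 12.5% to 43.2%, a 3.46-fold range, and their UMIs from 5.42 to 12.03, a 2.22-fold range. Il17f was found in 3.16% and 4.53%, 3.61% and 9.52%, 4.93% and 1.59%, and 7.08% and 0.779% of cells. Its positive cells held 1.37 and 1.55, 1.92 and 1.91, 1.77 and 1.68, and 1.81 and 2.0 UMIs each. For Il17f the share spanned a 12.2-fold range, and a 5.97-fold range without DSS-treated mutant replicate 2. A positive cell holds at least 1 UMI, so the range of UMIs per positive cell is bounded from below, and for Il17f, at 1.37 to 2.0, its width is not compared with that of the share. Without thinning, 22.9% of the 20712 cells held Il17a (95% Wilson interval 22.3 to 23.5) and 7.15% held Il17f (6.81 to 7.51). Intervals cover counting error only. The background of such shares was read in clusters that should lack both genes. In B, plasma, stromal, endothelial, macrophage, glial and squamous clusters the thinned share was 1.89% to 9.96% for Il17a and 0.283% to 1.13% for Il17f per library, and unthinned 7.75% and 2.14% over all of them, at a median of 4120 UMIs against 2365 in listed CD4 T cells. Without the barcodes of highest doublet score these unthinned shares were 5.33% and 1.32%.

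**Figure D2:**
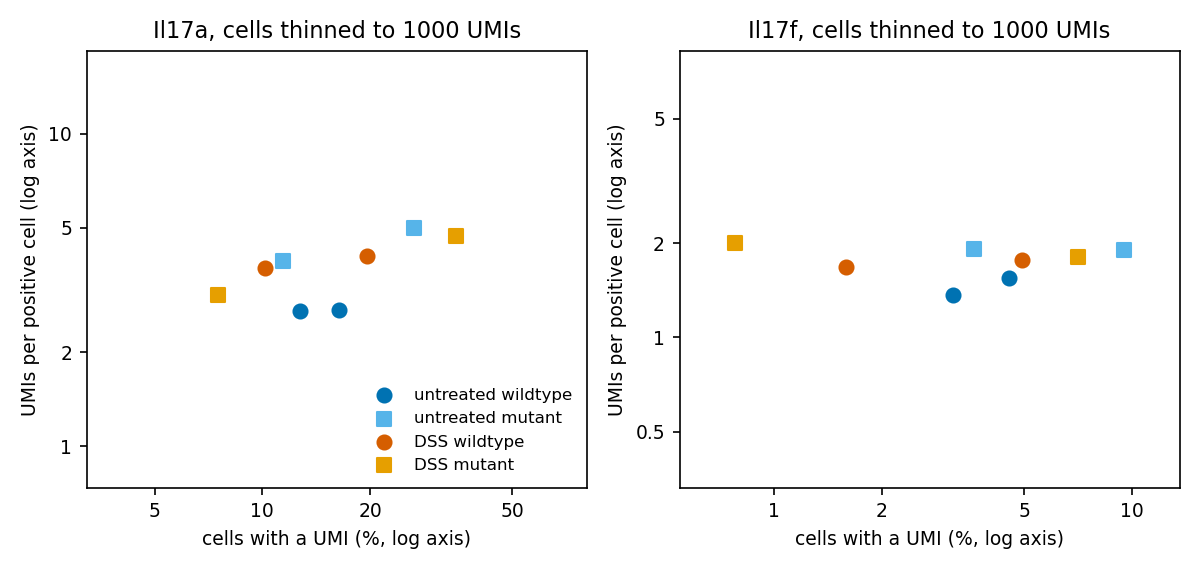
Share of listed CD4 T cells with a UMI (horizontal, percent) against UMIs per positive cell (vertical), cells thinned to 1000 UMIs, for Il17a (left) and Il17f (right); both axes are logarithmic and span the same fold range, and each point is a library. The shares run from 7.50% to 34.8% for Il17a and 0.779% to 9.52% for Il17f, and the UMIs per positive cell, which cannot be below 1, from 2.71 to 5.01 and 1.37 to 2.0.

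Il17f UMIs per positive cell were higher in the 4 mutant than in the 4 wildtype libraries without overlap, at means of 1.91 and 1.59 (exact two-sided permutation test, p = 0.0286, the smallest that 4 against 4 can give; adjusted over 16 tests 0.229). In unthinned cells the groups overlapped (exact permutation p = 0.429). The closest thinned values were 1.77 in DSS-treated wildtype replicate 1 and 1.81 in DSS-treated mutant replicate 1. The highest, 2.0 in DSS-treated mutant replicate 2, came from the 0.779% of its cells with Il17f. For levels, a different measure, 0.768% of the 5206 genes of 20 CPM or more did not overlap between the genotypes. Il17a UMIs per positive cell were 4.17 in mutant and 3.31 in wildtype libraries, with overlap (exact permutation p = 0.171, adjusted 0.686). The shares of positive cells did not separate by genotype or by treatment for either gene (exact permutation p of 0.457 to 0.886). In 7 of 8 libraries most Il17a transcripts lay in few cells. Cells with 10 or more Il17a UMIs, unthinned, were 2.63% and 4.02% of untreated wildtype, 4.90% and 13.7% of untreated mutant, 7.80% and 2.78% of DSS-treated wildtype and 12.8% and 2.19% of DSS-treated mutant cells, and held 48.2% to 81.9% of all Il17a UMIs of their library. The highest single cell of a library held 48 to 129 Il17a UMIs and 11 to 35 Il17f UMIs. The share of listed CD4 T cells in the Th17-like cluster, which was built without Il17a and Il17f and named from 6 detected markers, was 17.03% and 22.5%, 11.3% and 26.9%, 20.5% and 9.68%, and 34.6% and 8.05% in the same order of groups. The 2 libraries with most Il17a, DSS-treated mutant replicate 1 and untreated mutant replicate 2, were also the highest in that share, and DSS-treated mutant replicate 2 was the lowest in both. None of the 6 markers was among the 10 leading genes of the cluster by fold, which Il17a and Il17f head. At clustering resolution 0.5 the cluster of highest Th17 score, with 9840 barcodes, also had Ifng, a marker of Th1 cells, among its 10 leading genes and stayed unnamed.

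Unlike the levels, the proportion of Il17f to Il17a separated treated from untreated mice. Both were counted as transcript ends, with no scaling by length. Il17f UMIs per 100 Il17a UMIs were 13.4 and 16.1 in untreated wildtype, 13.9 and 13.5 in untreated mutant, 11.9 and 7.53 in DSS-treated wildtype, and 7.78 and 7.49 in DSS-treated mutant listed CD4 T cells. All 4 untreated libraries were above all 4 DSS-treated ones. Il17f made up 10.6% of the UMIs of both genes in DSS-treated wildtype replicate 1 (95% interval of counting error 9.98 to 11.3). In untreated wildtype replicate 1 it made up 11.8% (10.6 to 13.2), and these intervals overlapped. The interval of DSS-treated wildtype replicate 1 also overlapped those of the untreated mutant libraries. Intervals of the other DSS-treated libraries ended at 8.04% or lower, below those of all untreated libraries. In thinned cells the log2 ratio averaged -3.64 after DSS and -2.81 without, a difference of -0.83 (exact two-sided permutation test, p = 0.0286, the smallest that 4 against 4 can give; adjusted over 16 tests 0.229). The result did not pass the correction. At this smallest p no measure can pass over 16 tests unless many of them reach it too, so the failure decides nothing. Non-overlap of levels between the treatments was common, at 31.7% of the 5206 genes of 20 CPM or more, whereas the ratio to Il17a was free of overlap for 0.0576% of those genes. Il17a itself spanned 177 to 1427 CPM, so the ratio overlaps for genes that do not follow it, and that share is no fair background for Il17f. The ratio kept the 2 treatments apart in 8 of 8 distinct ways of choosing and thinning the cells, which share most of their UMIs, among them Th17-like cells alone (13.3 to 19.9 against 7.40 to 11.5 per 100), T cell barcodes with or without a Cd4 UMI (12.1 to 16.1 against 7.63 to 9.94) and all barcodes of a library (12.2 to 15.2 against 8.65 to 10.6). Between the genotypes, the log2 ratio averaged -3.28 in mutant and -3.17 in wildtype libraries (exact permutation p = 0.83, adjusted 0.884), with overlap.

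**Figure D3:**
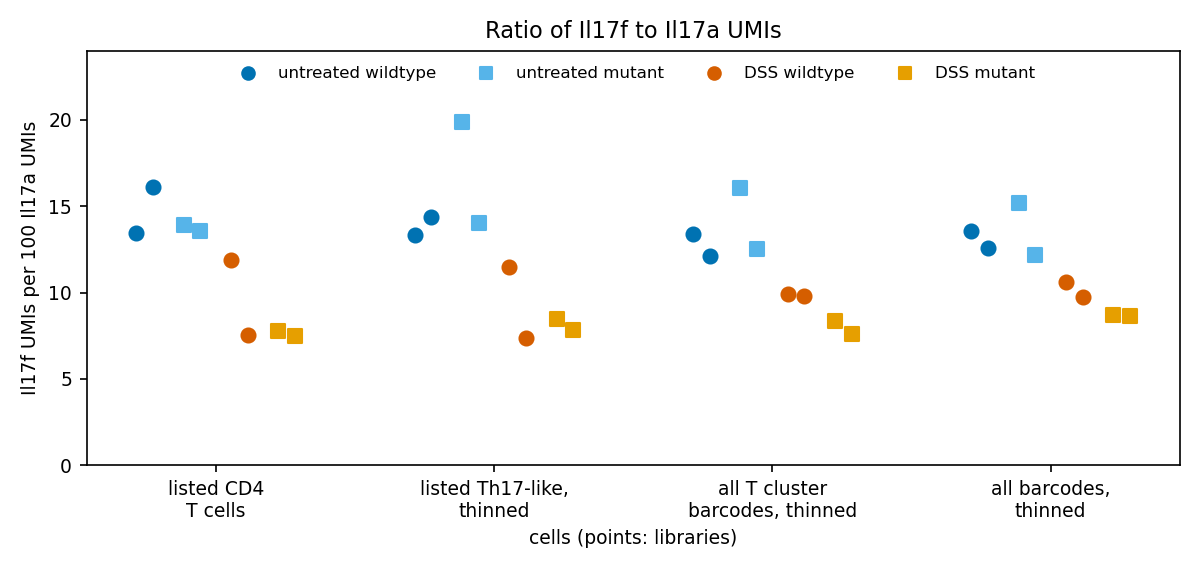
Il17f UMIs per 100 Il17a UMIs (vertical) in 4 selections of cells (horizontal); each point is a library, in the colour and shape of its group. In each selection the 4 untreated libraries lie above the 4 DSS-treated ones, which range from 7.49 to 11.9 in listed CD4 T cells.

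Il17f was detected mostly in cells that also held Il17a. Of the Il17f UMIs of a library, 86.1% to 97.0% lay in Il17a-positive cells. Among listed CD4 T cells with Il17f, 1306 of 1481 also held Il17a. In the clusters that should lack both genes, 590 of 701 barcodes with Il17f did so too. Of the listed CD4 T cells, 3439 held Il17a only, 1306 both and 175 Il17f only. Pooled over libraries, the share with Il17f was higher with a higher number of Il17a UMIs in the cell, from 1.10% of cells with none through 10.3% at 1, 19.8% at 2 to 4, 33.5% at 5 to 9 and 40.2% at 10 to 19 to 53.4% at 20 or more. Median depth was 2284 UMIs in cells with none and 3217 in cells with 20 or more. Within libraries the share rose through all classes in 5 of 8, and it fell from 57.8% to 47.6% at 20 or more in untreated wildtype replicate 2, and at 10 to 19 from 32.6% to 28.9% in DSS-treated mutant replicate 1 and from 28.3% to 18.3% in replicate 2. The share was also compared between the treatments at matched Il17a UMIs. With 1 Il17a UMI, 12.1% to 24.5% of cells in untreated libraries held Il17f, against 4.0% to 11.2% in DSS-treated ones. With 10 to 19 Il17a UMIs the ranges were 48.8% to 57.8% and 18.3% to 42.6%. The ranges did not overlap in 4 of 5 classes of Il17a UMIs, and in cells with 20 or more they did, at 47.6% to 80.0% and 27.3% to 54.4%. In cells with no Il17a UMI they overlapped as well, at 0.974% to 1.45% and 0.487% to 1.83%. All classes come from the same 8 libraries. Non-overlap between the treatments was common, at the levels of 31.7% of genes of 20 CPM or more. Il17f UMIs per 100 Il17a UMIs overlapped between the treatments in all 5 classes, for example at 13.1 to 16.7 against 6.49 to 14.97 per 100 with 5 to 9 Il17a UMIs and 10.2 to 15.7 against 4.63 to 11.6 with 10 to 19. Median depths in the class of 10 to 19 UMIs were 2563 to 4121 UMIs in untreated and 1810.5 to 4492.5 in DSS-treated libraries. Over all Il17a-positive cells, thinned to 1000 UMIs, Il17f was found in 18.0% and 18.9% of untreated wildtype, 21.1% and 31.4% of untreated mutant, 19.6% and 10.7% of DSS-treated wildtype and 17.8% and 7.89% of DSS-treated mutant cells. Means were 14.0% after DSS and 22.3% without, with overlap (exact permutation p = 0.114, adjusted 0.610). Unthinned, the difference of the means was -15.4 percentage points, without overlap (exact permutation p = 0.0286, adjusted 0.229).

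**Figure D4:**
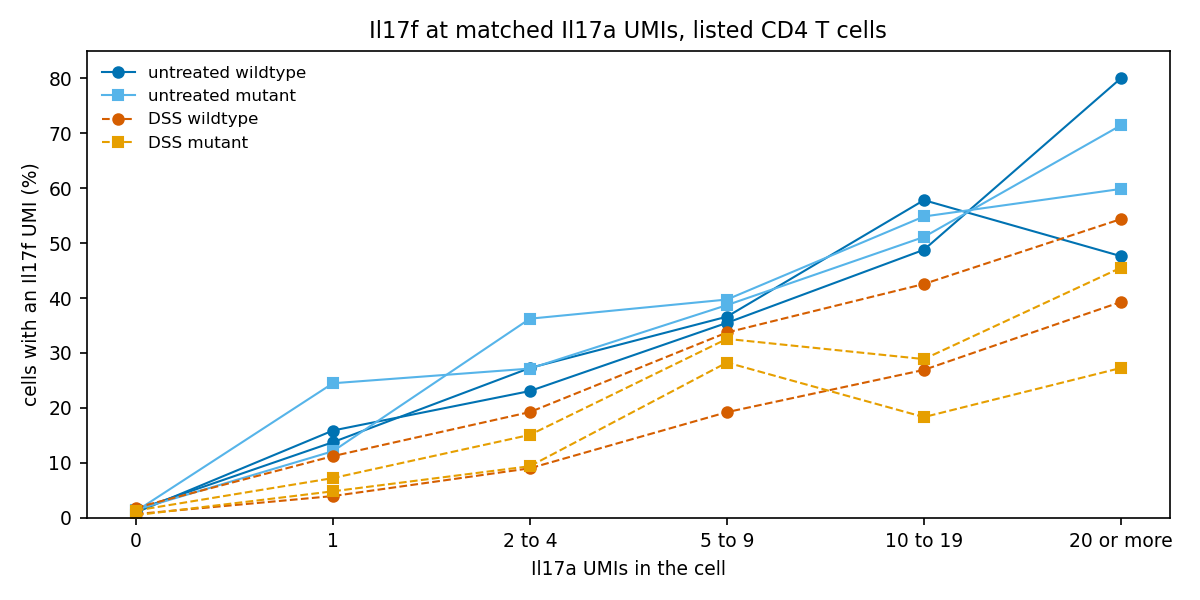
Share of listed CD4 T cells with an Il17f UMI (vertical, percent) by the number of Il17a UMIs in the cell (horizontal), unthinned; each line is a library, solid for untreated and dashed for DSS-treated. From 1 to 19 Il17a UMIs all solid lines lie above all dashed ones, and at 20 or more they overlap, at 47.6% to 80.0% and 27.3% to 54.4%.

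Other cytokines were read in the Il17a-positive cells. Ifng, the Th1 cytokine, was found in 38.6% and 41.8% of the Il17a-positive cells of untreated wildtype, 43.4% and 35.6% of untreated mutant, 28.2% and 28.1% of DSS-treated wildtype and 25.6% and 28.6% of DSS-treated mutant libraries, unthinned. Il22, which acts on epithelial cells and is made by Th17 cells and ILC3, was found in 18.4% and 26.8%, 32.3% and 30.3%, 22.4% and 12.6%, and 17.2% and 9.62% of them, with overlap. The share with Ifng thus did not overlap between the treatments, as the levels of 31.7% of genes did not. Nor did it in listed CD4 T cells without Il17a, at 19.005% to 26.7% in untreated and 8.82% to 18.6% in DSS-treated libraries. In the clusters that should lack both members the share with Ifng was 4.63% to 9.77% and 3.95% to 6.62%. The share with Il22 there was 2.22% to 3.82% in untreated and 1.69% to 4.49% in DSS-treated libraries. In listed CD4 T cells without Il17a it was 2.41% to 4.49% and 1.52% to 4.23%. Median depths of the Il17a-positive cells were 2607 to 3451 UMIs in untreated and 2174 to 3812 in DSS-treated libraries. No test was run on these shares. Of the list of 61 genes of the Th17 pathway, 55 were tested over all listed CD4 T cells. Averaged over the genotypes, 9 rose and 6 fell after DSS, against 18.4% of all genes called, and the list's median log2 fold change was -0.03 against 0.01 over all genes. The 9 that rose included the regulatory T cell factor Foxp3 (log2 fold change 1.39, edgeR adjusted p = 0.000756) and the integrin chain Itgae (1.67, edgeR adjusted p = 0.000361). The IL-2 receptor chain Il2ra (0.65), Ctla4 (0.40), Ikzf2 (0.45) and Tnfrsf9 (1.28) also rose, and regulatory T cells express all 6 of these genes. The rest were Il7r (0.67), Il6st (0.56) and Ccr2 (0.67). Foxp3 ran from 34.4 to 57.9 CPM in untreated and from 112 to 149 CPM in DSS-treated libraries. The 6 that fell were Ifng (-0.91, adjusted p = 0.00541), its regulator Tbx21 (-0.82), the cytokine Il21 (-0.82), Id2 (-0.49), Cd9 (-0.90) and Tnfrsf4 (-0.47). Other genes tied to Th17 cells did not pass the edgeR test, with the IL-23 receptor Il23r at -0.63 (adjusted p = 0.203), Il22 at -0.97 (0.232), the homing receptor Ccr6 at 0.60 (0.123), Il1r1 at 0.15 (0.746), Il10 at 0.27 (0.0738) and Maf at 0.20 (0.174). With untreated wildtype replicate 2 left out the counts were 6 and 3, and with DSS-treated mutant replicate 1 left out 9 and 13. With DSS-treated wildtype replicate 2 left out they were 6 and 5. In wildtype mice alone 3 genes of the list rose and none fell (Foxp3 1.20, Itgae 1.74, Tnfrsf9 1.20), with 0.227% of all genes called. That count was 1 without DSS-treated wildtype replicate 2 and 0 without untreated wildtype replicate 2. In mutant mice alone 6 rose (Il7r 0.79, Il2ra 0.68, Foxp3 1.58, Ccr2 0.95, Itgae 1.61, Tnfrsf9 1.36) and 5 fell (Il6ra -0.93, Il21 -1.46, Ifng -0.97, Cd9 -1.23, Tnfrsf4 -0.69), with 5.12% of all genes called. Leaving out untreated mutant replicate 1 gave 0 and 0, untreated mutant replicate 2 gave 3 and 0, DSS-treated mutant replicate 2 gave 4 and 0, and either untreated wildtype library gave 5 and 3. In the contrasts of the mutation no gene of the list passed this test. Without the filter on low counts 4 were higher and 1 lower in untreated mutant mice, 1 was lower after DSS, 5 were lower in the interaction and 3 were higher over the treatments, and with the block 2 were higher in untreated mutant mice.

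Cells with both cytokines held more Il22 than cells with Il17a only. The 2 classes were not matched for Il17a level. Of cells with 1 Il17a UMI 10.3% held Il17f, and of those with 20 or more 53.4% did. Whether the differences below go with Il17f or with the Il17a level was not tested. The comparison left out the 2 members themselves, summed each class of listed CD4 T cells within each library and kept the library as a block, and edgeR called 38 of 6914 genes (0.55% called; 536 at an unadjusted p under 0.05), 23 higher and 15 lower in cells with both. In those cells Il22 stood at 240 and 534 CPM in untreated wildtype, 591 and 960 in untreated mutant, 409 and 350 in DSS-treated wildtype and 542 and 146 in DSS-treated mutant libraries. In cells with Il17a only it stood at 111 and 278, 439 and 536, 122 and 142, and 175 and 41.9 CPM. Il22 was thus higher in 8 of 8 libraries, with an edgeR log2 fold change of 1.16 ± 0.09 (SE) and an adjusted p = 1.05e-12, and by 1.03 (adjusted p = 1.52e-12) among Th17-like cells alone. Without the library block its log2 fold change was 1.08 with an edgeR adjusted p of 0.9999. Next came the receptor tyrosine kinase Kit (0.71, adjusted p = 0.000132), Pxdc1 (0.69), AC163354.1 (0.64), the neutrophil chemokine Cxcl3 (0.52), Rbm24 (0.50), Slc15a3 (0.45), Cpe (0.41), the transcription factor Zeb2 (0.40) and Nmrk1 (0.39). Lower in cells with both were the anti-inflammatory cytokine Il10 (-0.69, adjusted p = 9.06e-05), Ighm (-0.64), Cxcl2 (-0.60), Gmnn (-0.59), Il6st (-0.58), Foxp3 (-0.56), Hspa1a (-0.50), Izumo1r (-0.45), the lymph node homing receptor Ccr7 (-0.41) and Lag3 (-0.40). Of 50 tested genes of the pathway list, 6 were higher, namely Il22, Rora (0.17), Bhlhe40 (0.20), the CCR6 ligand Ccl20 (0.55), the protease Furin (0.23) and Cxcr6 (0.28). The 5 lower were Il10, Il6st, Foxp3, Lag3 and Itgae (-0.96). The list's median was 0.08 against 0.00 over all genes tested. The IL-23 receptor Il23r was at 0.30 (edgeR adjusted p = 0.537), Il1r1 at 0.28 (0.117), Ccr6 at 0.52 (0.157), Ifng at 0.11 (0.835) and Maf at 0.05 (0.84). Of cells with both, 66.3% lay in the Th17-like cluster, against 51.1% of those with Il17a only. Among Th17-like cells alone edgeR called 5 genes, with Cxcl2 at 0.046 and Il10 at -0.19, and without untreated mutant replicate 1 it called 24. Il6st passed the threshold in 3 of 11 alternatives, AC163354.1 in 4 of 12, Rbm24 in 4 of 13, Izumo1r in 5 of 12, Rora in 5 of 13, and Ccr7 and Lag3 in 6 of 13.

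Pooled over libraries, the 175 cells with Il17f only made up 0.845% of listed CD4 T cells (95% Wilson interval 0.729 to 0.979). In the clusters that should lack the genes the share was 0.338% (0.281 to 0.407). These intervals count cells and leave out the spread between libraries. By library, 0.487% to 1.83% of listed CD4 T cells without Il17a held Il17f. How many of the 175 cells make Il17f alone was not tested. There were 16 to 42 cells with Il17f only per library, and 33.7% of all 175 lay in the Th17-like cluster. Relative to cells with Il17a only, edgeR called 79 of 5088 genes (1.55% called; 529 at an unadjusted p under 0.05), 35 higher and 44 lower. Amphiregulin (Areg), an epidermal growth factor receptor ligand tied to tissue repair, stood at 97.3 and 126 CPM in untreated wildtype, 215 and 206 in untreated mutant, 222 and 176 in DSS-treated wildtype and 110 and 201 in DSS-treated mutant cells with Il17f only. In cells with Il17a only it stood at 482 and 337, 458 and 666, 720 and 959, and 1164 and 672 CPM. All 8 libraries were lower, with an edgeR log2 fold change of -1.88 ± 0.14 (SE) and an adjusted p = 1.05e-15, and Areg passed the threshold in 13 of 13 alternatives. Ccr6, the receptor for Ccl20, was higher in 8 of 8 libraries, at means of 68.6 and 28.7 CPM (1.22 ± 0.27, adjusted p = 0.00678), from 48 UMIs in all cells with Il17f only. The sphingosine phosphate receptor S1pr1 (0.98) and Tcf7 (0.80), both high in resting and central memory T cells, were also higher, as were Vsir (0.79) and the ribosomal protein genes Rps12 (0.35), Rpl22 (0.31), Rps19 (0.31), Rpl10a (0.30), Rps18 (0.29) and Rps20 (0.29). Lower beside Areg were Prpf4 (-1.64), Slc4a1ap (-1.45), the chemokine receptor Ccr1 (-1.36), the inhibitory receptors Havcr2 (-1.28) and Lag3 (-1.22), Mau2 (-1.18), the transcription factor Prdm1 (-1.16) and Cxcl3 (-1.09). Of 46 tested pathway genes 1 was higher (Ccr6) and 10 were lower, which beside Lag3 and Prdm1 were Il10 (-0.96), Il21r (-0.72), Cxcr6 (-0.62), Ctla4 (-0.58), Id2 (-0.44), Bhlhe40 (-0.39), Maf (-0.33) and Icos (-0.29). The list's median was -0.27 against -0.02 over all genes tested. Il22 was at 0.77 (edgeR adjusted p = 0.0623), Il23r at -0.19 (0.936), Il1r1 at 0.03 (0.984), Foxp3 at -0.75 (0.262) and Ifng at -0.38 (0.659). Library medians of depth were 2466 to 5287 UMIs in cells with Il17f only and 2166 to 3851.5 in cells with Il17a only. The count of called genes was 35 without DSS-treated wildtype replicate 1, 40 without untreated wildtype replicate 2, 44 without DSS-treated mutant replicate 1 and 51 without untreated wildtype replicate 1. Among Th17-like cells alone edgeR called 2 genes, with Areg at -1.45. Vsir and Il10 passed the threshold in 2 of 11 alternatives, Prpf4 and Slc4a1ap in 3 of 11, Icos in 3 of 13, Rpl10a in 5 of 13, Havcr2 in 5 of 12 and Maf in 6 of 13.

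Across all barcodes, T cells held most transcripts of both genes. The Th17-like T cluster, 9555 barcodes or 9.49% of the total, held 56.3% of Il17a and 55.9% of Il17f UMIs. Its level was 2644 CPM for Il17a (1451 to 3660 per library) and 292 CPM for Il17f (110 to 500). The other 50890 T cell barcodes held 24.8% and 23.2%. The 32833 barcodes of the clusters that should lack the genes held 14.9% and 14.96%, at 91.1 and 10.2 CPM. Once the barcodes of highest doublet score were left out, they held 8.47% and 8.45%, at 54.0 and 6.05 CPM. Their ratio, 11.2 Il17f per 100 Il17a UMIs, was close to the 11.1 of Th17-like T cells. T cells on the authors' list held 37.2% of all Il17a UMIs, and T cell barcodes with no Cd4 UMI, which the list leaves out, held 34.97%.

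**Figure D5:**
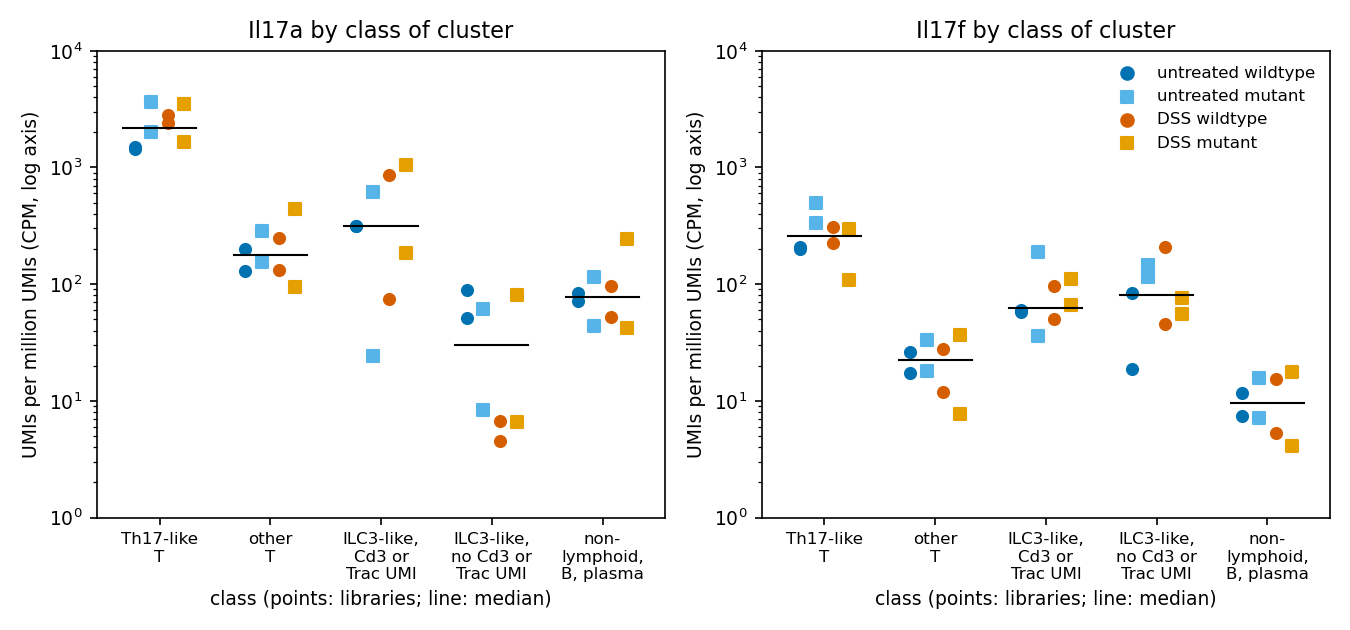
Il17a (left) and Il17f (right) by class of cluster (horizontal), in CPM on a logarithmic vertical axis, all barcodes; points are libraries and lines medians over the 8 libraries. ILC3-like barcodes with no Cd3 or Trac UMI have a median of 29.95 CPM for Il17a, below the 77.6 CPM of the clusters that should lack it, and 80.4 CPM for Il17f, above their 9.57 CPM.

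Pooled over libraries, ILC3-like barcodes with no Cd3 or Trac UMI carried Il17f with little Il17a. They held fewer Il17a than Il17f UMIs in 5 of 8 libraries. The ILC3-like cluster was named from 7 detected markers, Kit and Il23r among them. None of the 7 was among its 10 leading genes by fold, which Il22 heads. Its marker score was 2.78 for ILC3 and 1.68 for the next name, natural killer cells or ILC1. The 764 of its barcodes with no UMI of Cd3d, Cd3e, Cd3g or Trac held Il22 at 10746, Kit at 517 and Il23r at 82.5 CPM. They held 73 Il17a UMIs in 22 barcodes and 166 Il17f UMIs in 75 barcodes. By library, Il17a had 18 and 11 UMIs in untreated wildtype, 17 and 2 in untreated mutant, 1 and 1 in DSS-treated wildtype and 21 and 2 in DSS-treated mutant mice. Il17f had 17 and 4, 32 and 35, 31 and 10, and 20 and 17 UMIs. Il17f was above the level of the clusters that should lack it in 8 of 8 libraries, and Il17a in 2 of 8. The share of barcodes with Il17f was 9.82% (95% Wilson interval 7.90 to 12.1), against 2.14% in the clusters that should lack it, and with Il17a 2.88% (1.91 to 4.32) against 7.75%, at median depths of 2382 and 4120 UMIs. Of the positive barcodes 66 held Il17f only, 13 Il17a only and 9 both. The log2 ratio of Il17f to Il17a UMIs, with 0.5 added to each sum, was higher in these barcodes than in Th17-like T cells in 8 of 8 libraries, by 4.80 ± 2.25 (SD, n = 8; exact two-sided sign-flip permutation test, p = 0.0078, the smallest that 8 pairs can give). This comparison was chosen after the values were seen. The size depends on counts of 1 to 35 UMIs per library. With all barcodes of the cluster, which adds 321 barcodes that held a Cd3 or Trac UMI, at 431 CPM of Il17a and a median of 4657 UMIs, the difference was 2.13.

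Across the 29 clusters of all barcodes, the pattern of log2(CPM + 1) of Il17a and Il17f was alike, with Pearson's r of 0.892 over clusters that share libraries. The partner gene was left out of both rankings that follow. Of 10891 genes, those most like Il17a were Vax2 (r = 0.911), Cxcr6 (0.905), 1700012B07Rik (0.887), AC163354.1 (0.884) and Furin (0.875). Those most like Il17f were Tcrg-C1 (0.910), a gamma-delta T cell receptor constant gene, Nmrk1 (0.893), 1700012B07Rik (0.890), Gm44851 (0.875) and Olfr60 (0.873).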

How the data were processed

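Droplet single-cell RNA-seq libraries were prepared with a 3' kit from colonic lamina propria cells, about 10000 loaded per library. The authors deposited raw UMI counts per gene and barcode for each library, and a list of kept cells. The submitters' processing notes name Cell Ranger 3.1.0, Seurat 4.0.1 and mm10, without roles. In 7 of 8 tables the gene rows carry only numbers. Symbols were taken by row from the deposited identifier table, and the order was checked by correlating row sums with the table that carries identifiers, where 30468 of 30934 identifiers matched the table of gene names by symbol.

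All 100673 barcodes were clustered with scanpy 1.11.5 (counts scaled to 10000 per barcode, 1758 variable genes without the 2 members and other effector genes, 30 principal components, 15 neighbours, Leiden resolution 1, 29 clusters), and clusters were named from marker lists (among them Il23r, Il1r1, Ccr6, Tmem176a and Tmem176b for Th17, and Il23r, Kit, Cd81, Ltb4r1, Cxcr5 and Gpr183 for ILC3). Scrublet's automatic threshold called 0 to 8 barcodes in 7 of 8 libraries and was not used, so doublets were kept, and leaving out the 8% of highest score was an alternative.

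Counts of listed CD4 T cells were summed per library. edgeR 4.0.16 (TMM, quasi-likelihood, 4 groups in 1 fit, filtered on low counts) was the main test and DESeq2 1.42.0 an alternative, with a call at an adjusted p under 0.05. Scripts were tested on simulated data. Shares, UMIs per positive cell and ratios were compared by exact permutation, with 8 measures in 2 contrasts. With 2 libraries a group, p-values measure the spread between libraries only, and 2 against 2 cannot go below 0.333. Replicate numbers follow accession order and were not used to pair libraries.

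The 2 members, the lists and the tests were chosen with earlier results of these data known. Genes named are the members, pathway genes past the threshold, 10 set pathway genes otherwise, the 10 genes of largest change in each direction in the comparisons of cell classes (a mean of at least 20 CPM, 1 direction in at least 7 of 8 libraries), and the 5 genes most like each member. Some genes that these rules name are not reported here.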

Additional observations from a re-analysis of the deposited data

How the results depend on the processing

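The direction of the Il17f to Il17a ratio between treatments held in 15 of 15 alternatives, at -0.98 to -0.50 on the log2 scale (adjusted permutation p 0.152 to 0.457). Between the genotypes it was 0.045 in Th17-like cells and -0.32 to 0.090 leaving out 1 library. Leaving out a library makes 4 against 3, whose smallest exact permutation p is 0.0571, so a lost call there says nothing. For DSS against untreated, Il17a UMIs per positive cell turned from 0.291 to -0.642 with thinning to 2000 UMIs, -0.858 without thinning and -0.286 with at least 5 UMIs, and Il17f UMIs per positive cell from 0.130 to -0.109 (2000 UMIs) and -0.116 (no thinning). The log2 odds ratio of holding both turned from 0.14 to -0.10 (2000 UMIs), -0.78 (no thinning), -0.19 (without the highest doublet scores) and -0.45 (all barcodes), and between the genotypes to -0.027 with at least 2 UMIs. The share of Il17f-positive cells with Il17a turned from 3.50 to -4.61 percentage points without thinning and -1.005 without the highest doublet scores. Without 1 library the DSS difference ran from -4.34 to 4.75 points for the share with Il17a, -0.00252 to 0.762 for its UMIs per positive cell and -0.16 to 0.31 for the log2 odds ratio, and the mutant difference in Il17a-positive cells with Il17f from -1.21 to 6.62 points. The causes were not tested.

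In edgeR, log2 fold changes without 1 library ran as follows. For the mutant in untreated mice Il17a ran from 0.21 to 1.72 and Il17f from 0.11 to 1.58. For DSS in wildtype Il17a ran from -0.23 to 0.86 and Il17f from -1.22 to 0.53. For DSS in mutant they ran from -2.34 to 0.78 and -3.20 to -0.11. For the mutant after DSS they ran from -1.60 to 1.42 and -2.10 to 1.21, for the interaction from -2.76 to 0.37 and -3.13 to 0.18, for DSS over genotypes from -0.96 to 0.59 and -1.64 to -0.10, and for the mutant over treatments from -0.22 to 1.29 and -0.54 to 1.12. Over all listed cells Il17f was at 0.18 for DSS in wildtype and Il17a at 0.050 for DSS in mutant. With cells chosen by Cd3 and Trac UMIs, Il17f was at 0.025 for DSS in wildtype and -0.049 for the mutant after DSS. With or without a Cd4 UMI, Il17a was at 0.048 for DSS in mutant. With every gene kept, however low its counts, edgeR called Il17a for DSS in wildtype (0.42, adjusted p = 0.0494), the mutant in untreated mice (1.14), after DSS (0.57) and over treatments (0.86). It called Il17f for DSS in mutant (-1.02), the mutant in untreated mice (1.01), the interaction (-0.94), DSS over genotypes (-0.54) and the mutant over treatments (0.54). The edgeR adjusted p-values of these calls ran from 3.17e-15 to 0.0494. The cause was not tested. Neighbouring animal numbers in the titles were not taken as pairs, since no label says what they mark and deviations of neighbours over all genes correlated at 0.150 and 0.0739. The Il17a deviations of neighbours shared their sign in both treatments, and 2 libraries a group give 1 independent sign in each. As a replicate block the numbers gave 0.99 for Il17a and 0.91 for Il17f in the mutant of untreated mice, 0.020 and -0.19 after DSS, and 0.50 and 0.36 over treatments, with adjusted p of 0.322 to 0.999 for the members. DESeq2 called 212 genes for DSS in wildtype against 25 in edgeR, and 1345 against 2027 over genotypes. Over the alternatives, genes called for DSS ran from 0 to 855 in wildtype, 0 to 1619 in mutant and 247 to 2932 over genotypes.

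For Il17f only against Il17a only, 23 genes were called with at least 2 UMIs (15 shared), 2 in Th17-like cells, 8 without the library block, 190 without the filter, and 35 to 93 without 1 library. For both against Il17a only, the counts were 16 (15 shared), 5, 0 (186 at an unadjusted p under 0.05), 62 and 24 to 39, and 18 with DESeq2, and Cxcl2 was at 0.046 in Th17-like cells. The background share of UMIs was 8.47% and 8.45% without the highest doublet scores. Il17f, at 187 to 1118 UMIs per library, sets the precision of the ratio in listed CD4 T cells. In ILC3-like barcodes without Cd3 or Trac, at 4 to 35 Il17f UMIs per library, Il17a is the scarcer in 5 of 8, at as few as 1.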

Other observations

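Receptor chains of the 2 cytokines were measured in the same libraries. Il17ra, the shared chain, was at 121 CPM in macrophage-like barcodes, 84.2 in T cells outside the Th17-like cluster, 82.7 in B-like, 78.1 in Th17-like and 32.7 in fibroblast-like barcodes. Il17rc, its partner for both ligands, was at 28.9 CPM in smooth muscle-like, 27.1 in squamous-like, 25.0 in fibroblast-like and 14.9 in endothelial-like barcodes, against 7.2 in Th17-like and 1.2 in other T cells. Il17re, which pairs with Il17ra for IL-17C, was at 38.0 CPM in ILC3-like and 34.5 in Th17-like barcodes. Of the other ligands of the family, Il17d was at 24.6 CPM and Il17b at 4.4 CPM in smooth muscle-like barcodes. These are sums over 8 libraries with no test.

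No cluster was named as gamma-delta T cells. That name was the next in marker score for the Th17-like cluster, at 0.81 against 1.67 for Th17. The 70 T cell barcodes with at least 2 UMIs of Trdc, the delta chain constant gene, held 179 Il17a and 13 Il17f UMIs. Of the Il17a UMIs, 103 came from 9 barcodes of DSS-treated wildtype replicate 1, 76 remained without that library, and 2 libraries held none.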
